A study of Mus musculus with 2 samples.

Results

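Genes of the T cell receptor complex and its close partners were followed in small-intestinal crypts of mice with and without an epithelial deletion of Lpcat3. The 10 genes were given by name: Cd3d, Cd3e, Cd3g, Cd247, Cd8a, Cd8b1, Cd7, Lck, Zap70 and Cd2. Every probe set annotated with 1 of these symbols was taken, which gave 18 probe sets of 9 genes among 18193 genes named on the array. Lck was not named by any probe set with 1 symbol and was not analysed here. The control group was homozygous for a floxed Lpcat3 allele (Lpcat3 F/F). The knockout group carried the same alleles and the Villin-CreERT2 transgene, a Cre recombinase that tamoxifen switches on and that the Villin promoter places in gut epithelial cells, not in lymphocytes. Mice of both groups were 8 to 10 weeks old, were injected with 1 mg of tamoxifen a day for 5 days, and had crypts isolated 2 weeks after that. Each group is a pool of RNA from 5 mice, hybridised to 1 Affymetrix array. There were therefore no replicates, no test between groups was possible, and every difference below is a difference between these 2 arrays. Genotype, Cre, pool and array cannot be told apart.

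Intraepithelial lymphocytes are T cells that sit between the epithelial cells of the gut, and most of those in the mouse small intestine carry CD8 on their surface. Their T cell receptor consists of an alpha and beta or a gamma and delta chain, which bind the target, and of the CD3 proteins, which carry the signal into the cell. Lck then phosphorylates the CD3 tails and Zap70, a kinase docked on those tails, passes the signal on. No lymphocytes were sorted for these arrays: the RNA came from a crypt preparation, in which lymphocytes are a minor part beside epithelium. All 10 members are also made by T cells outside the epithelium, Cd8a and Cd8b1 only by some of these. Natural killer cells make some of the 10 too. The members therefore do not by themselves mark cells of the epithelium. In such bulk RNA, fewer cells of a type and less RNA per cell cannot be told apart.

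Signals are MAS5 values on a linear scale, and ratios are log2 of knockout over control. Without detection calls, a signal of 92.9, the 50th percentile of all values, served as floor. Signals under it count as the floor, so a gene above it on 1 array only has a bound ("at least"), and genes under it on both arrays are called not measured. A bound can only point 1 way, lower where control alone reached the floor and higher where knockout alone did. Counts of lower or higher genes below, in lists and over all genes, include such bounds. Where a gene has several probe sets, the brightest stands for it. The spread of log2 ratios between probe sets of 1 gene had an SD of 0.28 over 4582 genes, which leaves out the spread between mice. It was taken from the 2 brightest probe sets of a gene above the floor on both arrays, so dimmer ones are left out. The targeted gene Lpcat3 had a signal of 4691 in control and 928 in knockout, a log2 ratio of -2.34.

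The knockout pool had less signal from most of the measured receptor complex genes. Of the 9 genes with a probe set, 7 were measured, and 5 of these (Cd3g, Cd3e, Cd3d, Cd8a and Cd7) were at least 2-fold lower. Among all 11496 genes measured, 2.32% were at least 2-fold lower. Among the 3198 genes whose control signal lay in the range of those 5 members (541 to 1500), 2.22% were. Cd247 was lower by a bound short of 2-fold (at least 1.5-fold), and Zap70 was the 1 gene at least 2-fold higher by its brightest probe set, against 1.41% of all genes, although its other probe sets were lower. The median log2 ratio of the 7 genes was -2.03 (4.08-fold lower), beside -0.04 for all genes measured. Counted by probe set, 13 of 18 were measured, and 11 of these 13 were lower and 2 higher. Of the 11, 4 had bounds from control alone, which can only be lower. By gene, 55.1% of all genes measured were lower and 44.9% higher by any amount. In all, 9 probe sets were at least 2-fold lower and 1 was at least 2-fold higher, whereas 1.93% and 1.21% of all 24011 measured probe sets were. The members were named with earlier results of these arrays in view, so their count is a description.

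**Figure D1:**
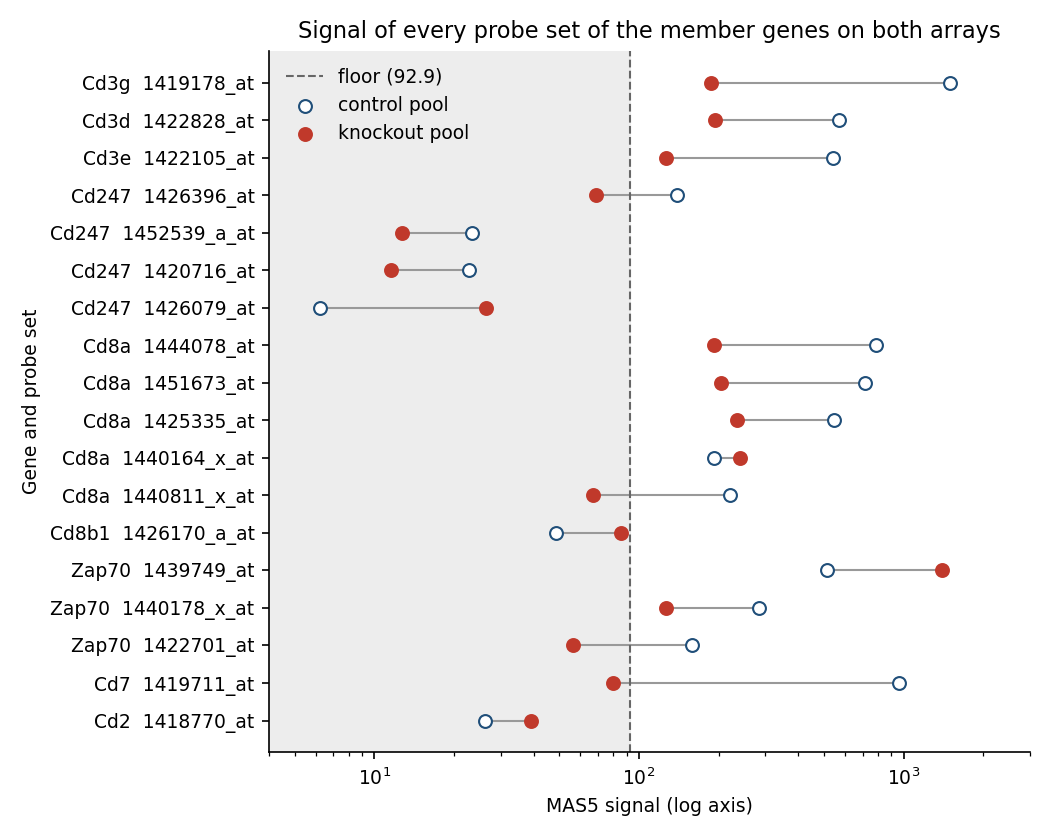
MAS5 signal (log axis) of each of the 18 probe sets in the control pool (open circles) and the knockout pool (filled circles), 1 array each, with the region below the floor of 92.9 shaded. Knockout signals lie left of control signals for Cd3g, Cd3d, Cd3e, Cd7 and 4 of 5 Cd8a probe sets. They lie right of them for 1 Zap70 and 1 Cd8a probe set above the floor, and for Cd8b1, Cd2 and 1 Cd247 probe set below it. All probe sets of Cd8b1 and Cd2 lie below the floor.

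Cd3g, Cd3d and Cd3e encode the gamma, delta and epsilon chains of CD3, which pair with each other and hold the receptor at the surface. Each was read by 1 probe set that lay above the floor on both arrays. Cd3g had a signal of 1500 in control and 188 in knockout, a log2 ratio of -3.0 (8.0-fold lower), the 4th lowest of 11496 genes. Cd3e went from 541 in control to 126 in knockout, a ratio of -2.10 (4.29-fold lower), and ranked 21 from the lowest. Cd3d had 569 in control and 194 in knockout, a ratio of -1.55 (2.93-fold lower), at rank 60. The 3 ratios were at least 5.6 times the SD of the probe error, which leaves out the spread between mice and pools. That multiple is not a test, and probe sets of 1 gene can lie much further apart, as those of Zap70 did (1.45 and -1.18). The ratio of Cd3g lay 0.90 below that of Cd3e and 1.45 below that of Cd3d on the log2 scale. Cd3e lay 0.55 below Cd3d. The probe error alone gives such a difference an SD of 0.39, and each gene was read by a single probe set, so whether the 3 genes differ in their ratio was not tested.

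In the RefSeq annotation of GRCm38.p6 these 3 CD3 genes are neighbours on chromosome 9, with Cd3g and Cd3d transcribed away from each other. The bases before their starts are shown because these genes were lower together. Those of Cd8a from chromosome 6, itself lower in knockout, are shown beside them. The sequences are RefSeq's, 5′ to 3′ on the gene's strand, up to 250 bases long and ending before the gene's outermost annotated start. Capitals mark GGAA on either strand (TTCC on the other), the core that ETS factors bind.
Cd3g (chr9:44980432-44980681, minus strand): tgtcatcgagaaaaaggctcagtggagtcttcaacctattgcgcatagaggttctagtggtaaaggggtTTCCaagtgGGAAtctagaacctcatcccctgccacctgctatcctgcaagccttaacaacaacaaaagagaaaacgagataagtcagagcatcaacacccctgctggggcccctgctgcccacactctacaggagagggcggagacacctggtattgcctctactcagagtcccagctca
Cd3d (chr9:44981536-44981768, plus strand): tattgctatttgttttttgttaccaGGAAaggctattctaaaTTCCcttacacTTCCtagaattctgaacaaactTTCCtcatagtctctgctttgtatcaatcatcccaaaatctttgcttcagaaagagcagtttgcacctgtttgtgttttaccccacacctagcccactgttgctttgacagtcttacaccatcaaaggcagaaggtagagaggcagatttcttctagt
Cd3e (chr9:45009664-45009861, minus strand): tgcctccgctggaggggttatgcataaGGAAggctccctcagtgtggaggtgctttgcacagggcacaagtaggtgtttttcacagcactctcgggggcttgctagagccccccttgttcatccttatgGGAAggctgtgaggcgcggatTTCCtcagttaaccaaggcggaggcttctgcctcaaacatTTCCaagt
Cd8a (chr6:71373177-71373426, plus strand): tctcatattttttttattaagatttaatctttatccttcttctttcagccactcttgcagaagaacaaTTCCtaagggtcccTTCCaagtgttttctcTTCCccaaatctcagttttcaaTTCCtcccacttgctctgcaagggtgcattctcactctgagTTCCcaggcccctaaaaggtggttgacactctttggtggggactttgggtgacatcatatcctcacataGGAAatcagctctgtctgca

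GGAA occurred 2 times in the Cd3g window, 4 times each in the Cd3d and Cd3e windows and 6 times in the Cd8a window. This core is short, and 93.5% of all 32851 RefSeq promoter windows of 250 bases hold it, as do 92.1% of windows of 233 bases (the length for Cd3d) and 89.0% of windows of 198 bases (for Cd3e). The E-box CANNTG, read on both strands, occurred 3 times in the Cd3g window, 1 time in that of Cd3d and 2 times in that of Cd8a, and the Cd3e window held none. Of all windows, 66.2% held it at 250 bases, 63.9% at 233 and 58.7% at 198. In the Cd3g and Cd8a windows 1 base of a GGAA match was shared with a CANNTG match. TATAAA (in 12.4% of all windows of 250 bases) and the RUNX core TGTGGT (in 14.1%), each searched on both strands, were in none of the 4 windows. These are letter matches only, and the arrays hold no measurement of binding. Of the 10 members, 6 had such a window before their outermost start. Not printed are those of Zap70 (GGAA 8, CANNTG 3, TGTGGT 0) and Lck (GGAA 6, CANNTG 0, TGTGGT 1).

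Cd247 encodes the zeta chain, the CD3 subunit with the longest signalling tail, which natural killer cells use too. Of its 4 probe sets, 3 lay below the floor on both arrays. The remaining one had a signal of 139 in control and 68.6 in knockout, below the floor, so that Cd247 was at least 1.5-fold lower (log2 ratio at most -0.58). Its ratio of the signals as deposited was -1.02. Because the control signal was itself close to the floor, a difference as large as that of Cd3g could not have been read here.

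Of the genes for CD8, the co-receptor that binds MHC class I and brings Lck to the receptor, only Cd8a was measured. Its brightest probe set (1444078_at) had 785 in control and 193 in knockout, a log2 ratio of -2.03 (4.08-fold lower). The next 2 gave 713 against 204 (-1.80) and 544 against 234 (-1.22). Of the probe sets marked _x_at, which can bind related transcripts, 1440811_x_at had 221 in control and 66.9 in knockout, at least 2.38-fold lower. The other, 1440164_x_at, had 192 in control and 241 in knockout, a ratio of 0.33, close to the probe error. In sum 4 of 5 Cd8a probe sets were at least 2-fold lower, with a median over all 5 of -1.25. Cd8b1, the partner chain in the CD8 alpha-beta form, was not measured, with signals of 48.6 in control and 85.3 in knockout. The alpha-alpha form common on intraepithelial lymphocytes needs Cd8a alone, and the arrays do not tell which form the cells carried.

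**Figure D2:**
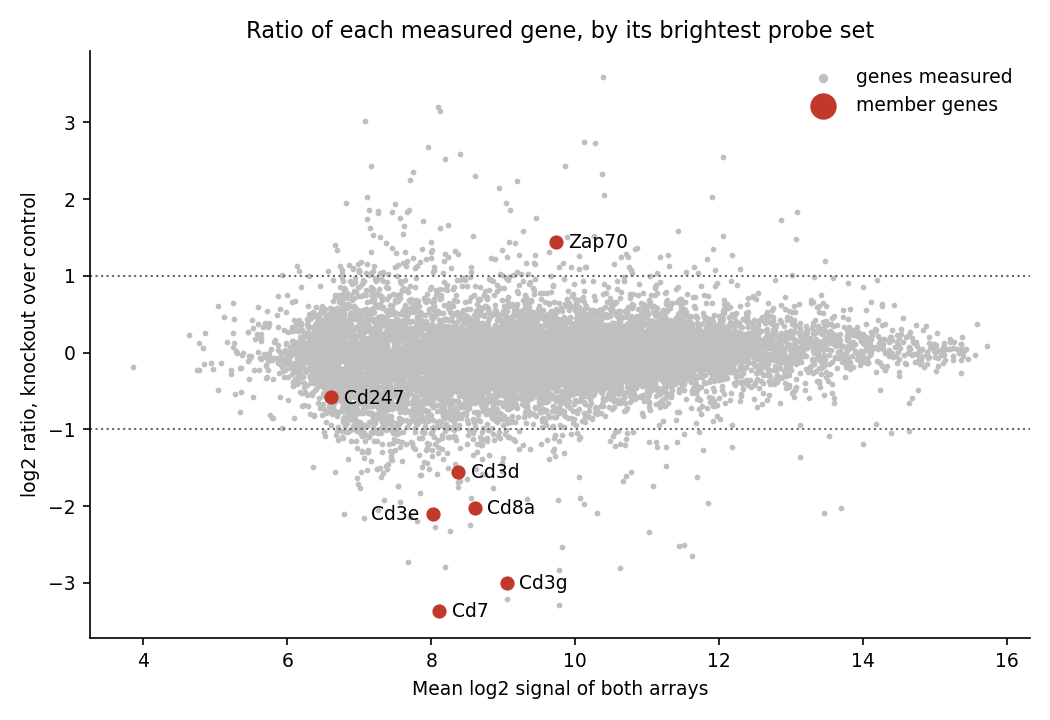
Log2 ratio of knockout over control against the mean log2 signal of both arrays for the 11496 genes measured (grey) and the 7 measured members (red), each by its brightest probe set, with dotted lines at 2-fold. Cd7 (-3.37, a bound) and Cd3g (-3.0) lie at the lower edge of all genes, Cd247 (-0.58, a bound) within the cloud, and Zap70 (1.45) above it.

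Zap70 was read in opposite directions by its 3 probe sets. The brightest, 1439749_at, had 514 in control and 1399 in knockout, a log2 ratio of 1.45 (2.72-fold higher), and 0.461% of all genes were as high or higher. The next, 1440178_x_at, had 285 in control and 126 in knockout, a ratio of -1.18 (2.26-fold lower). The third, 1422701_at, had 159 in control and 56.5 in knockout, at least 1.71-fold lower. Thus 2 of 3 probe sets followed the CD3 genes, and the direction given for Zap70 rests on which probe set is read. Without 1439749_at, a setting chosen after its values were seen, 6 members rather than 5 were at least 2-fold lower, none was at least 2-fold higher, and the median stayed at -2.03. Which transcript 1439749_at binds was not tested.

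Cd7, an immunoglobulin-family surface protein of T and natural killer cells, had 959 in control and 79.5 in knockout, below the floor. It was at least 10.3-fold lower (log2 ratio at most -3.37), and no other measured gene had a lower ratio. Cd2, an adhesion receptor that binds CD48, was not measured, with signals of 26.3 in control and 39.2 in knockout. Its ligand gene Cd48 was 2.44-fold lower (267 in control, 110 in knockout).

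The chains of the receptor itself were lower with the CD3 genes. The array annotation names 10 variable segments or chain loci by 1 symbol. Of these, 5 were measured, all 5 were lower and 4 were at least 2-fold lower. Of all genes measured, 55.1% were lower and 2.32% at least 2-fold lower. Trgv4, a gamma chain segment, had 2329 in control and 327 in knockout (-2.83, and -2.47 by another probe set). Trgv1, also of the gamma locus, had 684 in control and 137 in knockout (-2.32). Of the segments of the other receptor, Trbv1 (beta chain) went from 591 to 185 (-1.68) and Trav9d-3 (alpha chain) from 634 to 276 (-1.20, with -1.22 by another probe set and at least 3.96-fold lower by the remaining one above the floor in control). Trav12n-2 was at least 1.09-fold lower. Trbv13-2, Trav6-3, Trav12n-1 and Trav13-5 lay below the floor on both arrays. With the floor at the 30th percentile 6 segments were measured and 1, Trbv13-2 (7.81 in control, 85.8 in knockout), was at least 2-fold higher. At that floor 422 of all 15016 genes measured were at least 2-fold higher. Chain names beyond Trgv4, Trgv1 and Tcra (not measured) were added after the values were seen, and probe sets of variable segments can bind related segments.

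Of 31 named kinases, adaptors and regulators that act next to the receptor, 17 were measured, 15 were lower (14 after quantile normalization or lowess), 7 were at least 2-fold lower and none of the 17 was at least 2-fold higher. Of all genes 55.1% were lower, 2.32% by 2-fold or more, and 1.41% were higher by 2-fold or more. The list's median was -0.46, beside -2.03 for the members and -0.04 for all genes, though 14 of the 31 genes lay below the floor on both arrays. Fyb, an adaptor that links the receptor to integrins, had 636 in control and 203 in knockout (-1.65, and -1.19 by its other probe set). Fyn, a kinase related to Lck, went from 285 to 108 (-1.40, and -1.23 by its other probe set). Ptprc (CD45), the phosphatase that keeps Lck ready and that all white blood cells carry, went from 2136 to 966 (-1.15). Lat, the membrane adaptor that Zap70 phosphorylates, went from 205 to 100.4 (-1.03); it was singled out after its values were seen. Csk, a kinase that restrains Lck and is made in most tissues, stood at 0.16 and Themis at 0.06. After quantile normalization 4 rather than 7 were at least 2-fold lower, since 3 of the 7 were close to 2-fold here, Lat at -1.03 and 2 others, with bounds, at least 2.04-fold and 2.03-fold lower. With a pseudocount equal to the floor 2 of 17 were at least 2-fold lower, beside 129 of all 11496 genes. With the floor at the 70th percentile 2 of the 6 measured were, beside 97 of all 8293 genes.

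Of T cell transcription factors 6 of 10 were measured and all 6 were lower (55.1% of all measured genes were), 1 of them by at least 2-fold (2.32% of all genes). Ets1 went from 506 to 179 (-1.5), with -1.15 by another probe set and at least 1.07-fold higher by a dim one. Tbx21, the factor T-bet of cytotoxic cells, was at least 1.57-fold lower, Ikzf3 stood at -0.62 and Tox at -0.36. Bcl11b stood at -0.35 and Ikzf1 at -0.12, the highest of the 6.

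Genes listed for the surface and homing of intraepithelial lymphocytes were lower as well, though they do not by themselves mark cells of the epithelium. Of 13 surface and homing genes 12 were measured, all 12 were lower (11 with the median of a gene's probe sets) and 5 were at least 2-fold lower, with a median of -0.93. Of all genes, 55.1% were lower and 2.32% at least 2-fold lower. Itgae, the alpha-E integrin (CD103) that ties these cells to epithelial E-cadherin, had 1689 in control and 446 in knockout (-1.92, and -1.70 by its other probe set). Ccl5, a chemokine stored by cytotoxic T cells, went from 6667 to 1161 (-2.52), Cd96 from 402 to 133 (-1.59) and Gpr18 from 465 to 178 (-1.39). Xcl1 was at least 1.45-fold lower and Ahr, which epithelium also makes, stood at -0.22. Cd69 was not measured. Of 12 cytotoxic and natural killer genes 8 were measured, all 8 lower and 5 at least 2-fold lower (median -1.54), beside the same shares of all genes. Klrd1 (-3.21), Gzmb (-2.51), Gzma (-2.09) and Nkg7 (-1.76) were lowest. Klrc1, Klra7, Klrk1 and Ncr1 lay below the floor on both arrays. With the floor at the 30th percentile all 12 genes were measured and 2 of them were higher, Ncr1 and, by at least 2-fold, Klrk1. Among all 15016 genes measured at that floor, 422 were at least 2-fold higher.

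Genes listed for helper and regulatory T cells gave little signal on either array. Of 9 on the list 3 were measured and 6 were not, among them Cd4 (17.8 in control, 15.1 in knockout), Foxp3, Il2ra, Ctla4, Ccr7 and Il17a. Of all 18193 genes named, 11496 were measured. Each of the 3 reached the floor on 1 array only, so its direction follows from which array that was. Il7r was at least 1.48-fold and Icos at least 1.24-fold lower, and Cd40lg at least 1.39-fold higher.

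**Figure D3:**
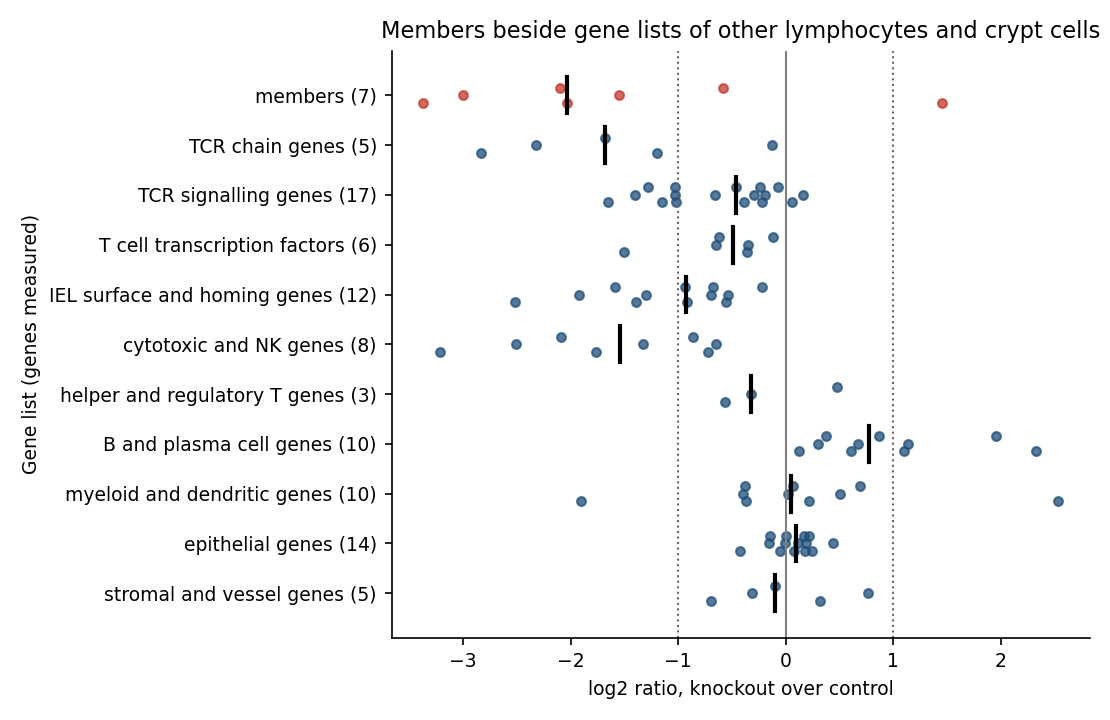
Log2 ratio of knockout over control for each measured gene (points) of the members and of 10 gene lists, with the median of each list as a bar and dotted lines at 2-fold. Members, receptor chains and lists of T and natural killer cells lie mostly left of 0, B and plasma cell genes right of it, and epithelial genes within 2-fold.

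Lists of B cells, myeloid cells, epithelium and stroma had medians between -0.10 and 0.77. All 10 measured B and plasma cell genes (of 12) were higher (44.9% of all genes were), 4 of them by at least 2-fold (1.41% of all genes), with a median of 0.77 and a summed signal of 3507 in control and 8266 in knockout. Jchain stood at 2.33 and Ighm at 1.95, and the other probe sets of Ighm above the floor on both arrays gave 1.32 and 0.07. Of the signalling chains of the B cell receptor, the counterpart of CD3, Cd79a stood at 0.12 and Cd79b, named after its values were seen, at 1.14 (125 in control, 277 in knockout). Pax5 and Tnfrsf17 were not measured. Without _s_at and _x_at probe sets 1 of the 10 was lower. Of 16 myeloid and dendritic genes 10 were measured, 4 lower and 6 higher, with a median of 0.05. Fcer1g was lowest (-1.90), followed by Cd14 (-0.40), Lyz2 (-0.38) and Itgax (-0.37), and Csf1r (2.53, but 1.21 and 0.65 by other probe sets) and Mcpt2 (0.69) were highest. Itgam, Xcr1, Cx3cr1, Batf3, Zbtb46 and Cpa3 were not measured. With the floor at the 70th percentile the myeloid median was -0.39 over 4 genes.

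All 14 epithelial genes were measured and lay within 2-fold, with a median of 0.09 and a summed signal of 206371 in control and 226817 in knockout. Cdx1 (-0.43) was lowest and Krt20 (0.44) highest. Of 14 stromal and vessel genes 5 were measured, none of the 5 beyond 2-fold (median -0.10). Des was at least 1.62-fold lower and Acta2 was highest at 0.76. Lying within 2-fold set neither list apart from other genes. Only 2.32% of all 11496 genes measured fell below that range and 1.41% rose above it. Over the same arrays the summed signal of the cytotoxic and natural killer list was 33843 in control and 7796 in knockout, and that of the surface and homing list 11957 and 3720. Such sums add probe sets that differ in brightness per transcript and are led by single ones: Gzma alone gave 23218 and 5448, and in the B cell list Sdc1, which epithelium also makes, gave 1741 and 2663. The part that cell make-up has in the lower CD3, Cd8a and Cd7 signals was not tested.

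The 8 genes outside the members with the ratio nearest to their median of -2.03, among genes with a control signal of at least 451 (the 75th percentile), differed from it by at most 0.129 over the 2 arrays. They were Selenop (-2.03), Sgk1 (-1.97), Sectm1b (-2.09), Gzma (-2.09), Cyp4v3 (-1.96), Itgae (-1.92), Dio1 (-1.90) and Fcer1g (-1.90). Selenop, the nearest (26658 in control, 6527 in knockout), Sgk1, Sectm1b, Cyp4v3 and Dio1 are on none of the gene lists used here. Gzma and Itgae are known from cytotoxic and intraepithelial lymphocytes. Fcer1g encodes the Fc receptor gamma chain, a relative of the zeta chain that natural killer, myeloid and some intraepithelial T cells use. It had 724 in control and 194 in knockout. With 2 arrays a pattern is a single ratio, so this likeness carries no more than that.

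**Figure D4:**
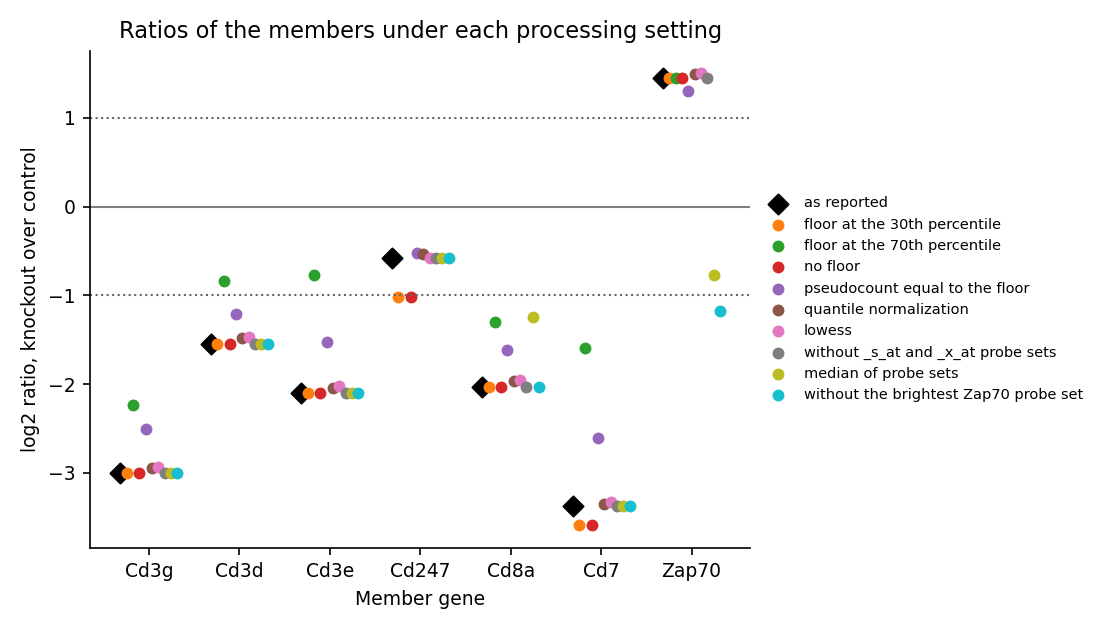
Log2 ratio of each measured member as reported (black diamonds) and under 9 other settings (coloured points), with dotted lines at 2-fold. Cd3g, Cd8a and Cd7 stay below -1 under every setting shown, Cd3d and Cd3e rise to -0.84 and -0.77 with the highest floor, and Zap70 lies on both sides of 0.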

How the data were processed

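Total RNA of crypts, extracted with Trizol per the labels' protocols, was pooled from 5 mice per group and read on 1 array each. The deposited values are intensities on a linear scale, 1 for each probe set and array, computed by the authors with MAS5 per the submitters' processing notes, with version and options not given in the sources used here. Means after trimming 2% at each end were 500.00 on both arrays, so the intensities were used as deposited. The table holds 45101 probe sets, the number of the full mouse genome array, although the submitters name its A version.

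After removal of 64 control probe sets, 34945 had 1 gene symbol (34741 updated through Entrez identifiers to RefSeq GRCm38.p6), 932 had several and 9160 none, and only the first kind was named. Signals under the floor (92.9) were raised to it. In control 22737 and in knockout 22300 probe sets reached it. The code was checked on data with known answers. Python 3.11.15, numpy 2.4.6, pandas 2.3.3 and statsmodels 0.14.6 were used. Of other genes, the text names up to the 4 lowest and 2 highest measured ones of each list, some list genes below the floor on both arrays, and the 8 of nearest ratio. Members and lists were chosen with earlier results of these data known. No array coordinates are given because no build is named for the array.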

Additional observations from a re-analysis of the deposited data

How the results depend on the processing

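No paired analysis was possible because a group holds a single array, which also means that leaving out arrays could not be tried. The members' median of -2.03 became -1.55 under a 30th percentile floor (9 members measured), -1.07 under a 70th percentile floor (6 measured), -1.53 with a pseudocount equal to the floor and -1.55 with the median of a gene's probe sets. The members added by the 30th percentile floor were Cd8b1 (48.6 in control, 85.3 in knockout) and Cd2 (26.3 in control, 39.2 in knockout). Both were higher in knockout. The count of members at least 2-fold lower stayed between 3 and 6, with 3 at the 70th percentile floor. That of members at least 2-fold higher was 0 with the median of probe sets and 0 without the brightest Zap70 probe set, since Zap70 then stood at -0.77 and -1.18. Scaling by quantiles or lowess kept each member's ratio within the probe error. Of the 10 gene lists beside the members, the median of the myeloid list changed sign, at the 70th percentile floor, where no helper T gene was measured. A higher floor or a pseudocount shrinks ratios of dim genes by construction. Across all genes measured, 631 of 15016 were at least 2-fold lower with the 30th percentile floor and 97 of 8293 with the 70th, against 267 of 11496. The number of arrays limits every value.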
